A study of Mus musculus with 20 samples.

Results

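This report is about 8 genes through which the circadian clock acts on transcription in the liver: Dbp, Tef, Hlf, Nfil3, Ciart, Usp2, Bhlhe40 and Bhlhe41. They were chosen by gene name from a table of 48440 genes, with differences between the treatment groups already known, so their group differences are a description and support nothing on their own. All 8 were found, each on 1 identifier, and all 8 were among the 16071 genes with enough counts to be tested. Livers of 20 wild-type female C57BL/6 mice (C57BL/6J in the study's own account) were sequenced as bulk RNA, 5 mice in each of 4 groups. The mice were 8 weeks old at the start, were kept for 5 weeks on treatment, and lived under 12 h of light and 12 h of darkness.

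All 4 groups received an antibody by intraperitoneal injection 2 times a week, at 5 mg per kg body weight. It was either αACBP, a monoclonal antibody that neutralizes acyl coenzyme A binding protein (ACBP, a secreted appetite-stimulating factor), or a control IgG2a isotype antibody. In each antibody arm, mice drank either vehicle or corticosterone (CORT, the main glucocorticoid of mice) at 100 µg per ml. In short these are αACBP + CORT and αACBP + Vehicle on one side and, on the isotype side, Isotype + CORT and the control group Isotype + Vehicle. The hour of liver collection is not given in the sources used here. The labels number the mice in blocks by group, and whether livers were collected in that order is not stated. A difference in hour between groups could not be told apart from a difference in treatment. Genes of the clock change over the day, so a shift in time between livers and a change in amplitude cannot be told apart. Fewer cells of a type and less RNA per cell cannot be told apart in bulk tissue either.

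The members form the output side of the clock. DBP, TEF and HLF are the PAR bZIP transcription factors, activators that bind D-box elements and drive daily rhythms of liver enzymes for drug, sterol and fatty acid metabolism. NFIL3, also called E4BP4, is a bZIP repressor that competes for the same elements and peaks at the opposite time of day. CIART, also called CHRONO, represses the CLOCK:BMAL1 activator, and USP2 is a deubiquitinating enzyme whose transcript is strongly rhythmic. BHLHE40 and BHLHE41, also called DEC1 and DEC2, are repressors that bind E-boxes, the elements through which CLOCK:BMAL1 acts. Glucocorticoids are a known timing signal for the liver clock.

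Promoter windows show what the members share in sequence near their starts. RefSeq windows on GRCm38.p6, from 250 bases before to 50 bases after a gene's start, were held for 7 of the 8 members, Bhlhe40 being the exception. The E-box CACGTG, which reads the same on both strands, was present in 7.15% of the 32851 windows of that length. Ciart had 3 copies, starting 116, 58 and 44 bases before its start. Both Tef windows had 1 copy, 127 and 138 bases before the start, and Bhlhe41 had 1 at 153 bases. The Dbp, Hlf, Nfil3 and Usp2 windows had none. The D-box forms TTATGTAA and TTATGCAA, searched on both strands, were in no member window and in 0.938% and 0.743% of all windows. Nfil3 had 1 copy of AGGTCA, 12 bases before its start, the half-site shared by REV-ERB and ROR receptors, found on either strand in 16.3% of windows. The windows of Ciart, Tef, Dbp and Nfil3 are shown because these 4 genes had no overlap between the vehicle groups; capitals mark CACGTG in Ciart and Tef and AGGTCA or its reverse complement in Nfil3, and Dbp has neither.
Ciart, chr3:95882179-95882478, minus strand: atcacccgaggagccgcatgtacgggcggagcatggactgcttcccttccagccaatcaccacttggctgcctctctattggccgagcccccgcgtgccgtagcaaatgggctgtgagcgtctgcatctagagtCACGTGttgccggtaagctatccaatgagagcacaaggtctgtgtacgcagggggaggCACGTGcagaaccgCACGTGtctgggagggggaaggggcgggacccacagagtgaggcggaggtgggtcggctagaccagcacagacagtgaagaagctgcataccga
Tef, chr15:81802423-81802722, plus strand: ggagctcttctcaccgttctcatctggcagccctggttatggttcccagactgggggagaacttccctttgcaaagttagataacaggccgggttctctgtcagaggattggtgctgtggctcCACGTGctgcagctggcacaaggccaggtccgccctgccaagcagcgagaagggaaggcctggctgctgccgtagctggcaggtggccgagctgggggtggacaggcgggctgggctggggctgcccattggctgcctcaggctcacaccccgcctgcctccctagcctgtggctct
Dbp, chr7:45704997-45705296, plus strand: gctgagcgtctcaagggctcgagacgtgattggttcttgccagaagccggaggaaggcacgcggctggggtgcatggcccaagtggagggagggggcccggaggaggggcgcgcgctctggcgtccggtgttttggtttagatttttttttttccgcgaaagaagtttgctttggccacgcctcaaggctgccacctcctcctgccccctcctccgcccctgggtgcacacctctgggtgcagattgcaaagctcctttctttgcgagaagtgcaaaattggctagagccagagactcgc
Nfil3, chr13:52980990-52981289, minus strand: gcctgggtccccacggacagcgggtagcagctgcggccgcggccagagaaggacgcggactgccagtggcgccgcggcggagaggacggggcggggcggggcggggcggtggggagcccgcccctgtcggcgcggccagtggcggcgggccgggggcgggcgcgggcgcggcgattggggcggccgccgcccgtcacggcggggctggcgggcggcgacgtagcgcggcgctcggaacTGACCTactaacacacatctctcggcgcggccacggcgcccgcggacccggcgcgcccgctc
A match is a description of letters and says nothing of binding.

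Library totals on genes ran from 14934926 to 20299999 counts, so that 3 counts, the floor used here, correspond to 0.201 CPM in the smallest library. CPM, used for all levels here, are counts scaled to a common library size. Livers of 1 group correlated at 0.869 to 0.958 in log2 CPM. Summed CPM of 4 hepatocyte markers (Alb, Apoa1, Ttr and Cyp3a11) lay between 35063 and 133890, as the label liver implies. Of 10 glucocorticoid-induced genes, a list fixed with earlier results known, 5 were higher and 5 lower with CORT under isotype (median log2 -0.037), and 2 of 10 were higher under αACBP (median -0.35). Fkbp5, a direct glucocorticoid receptor target, was the 1 gene of the list called with CORT, under isotype, where 1.94% of all genes were called. It was 3.25-fold higher with CORT under isotype (log2 1.70 ± 0.26 SE, adjusted p = 0.000722 by the edgeR quasi-likelihood test) and 1.22-fold higher under αACBP (log2 0.28 ± 0.26, adjusted p = 0.720).

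One liver stood apart. In αACBP + CORT replicate 5, Dbp was 194 CPM against 6.43 to 9.60 in the other 4 livers of its group, and Tef was 327 against 62.6 to 114. Over the 8 members on the log2 scale, this liver lay at a distance of 2.59 from the αACBP + Vehicle mean and 6.05 from the mean of the other αACBP + CORT livers. By this distance, αACBP + CORT replicates 1, 2 and 4 also lay nearer to the mean of another group, Isotype + Vehicle. So did Isotype + CORT replicates 1, 2, 4 and 5, Isotype + Vehicle replicates 1 and 3 and αACBP + Vehicle replicate 4, each with a group not its own. The αACBP + CORT mean used for all other livers included replicate 5. From that mean, αACBP + CORT replicates 1, 2 and 4 lay at 2.05, 3.02 and 3.68. From the Isotype + Vehicle mean they lay at 1.80, 2.73 and 2.63. Distances free of replicate 5 were not computed, so these livers do not show how unusual its own distance is. Nearness to another group alone cannot decide a label. Across all tested genes, the median correlation of αACBP + CORT replicate 5 with its own group was 0.927, against 0.938 to 0.948 for the other 4. All livers of Isotype + CORT (0.892 to 0.912) and αACBP + Vehicle (0.873 to 0.918) were lower in this measure. The lowest was αACBP + Vehicle replicate 5, which also had the highest TMM scaling factor (1.29) and the lowest weight in the voom fit described below (0.236). The label places the liver with high Dbp, replicate 5 of αACBP + CORT, in that group while its members' levels lie nearer to αACBP + Vehicle. Whether the label is right was not tested. Results that rest on it, the means of αACBP + CORT among them, are therefore given with and without it. It was singled out by the members' own values, so values without it are also a description.

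**Figure D1:**
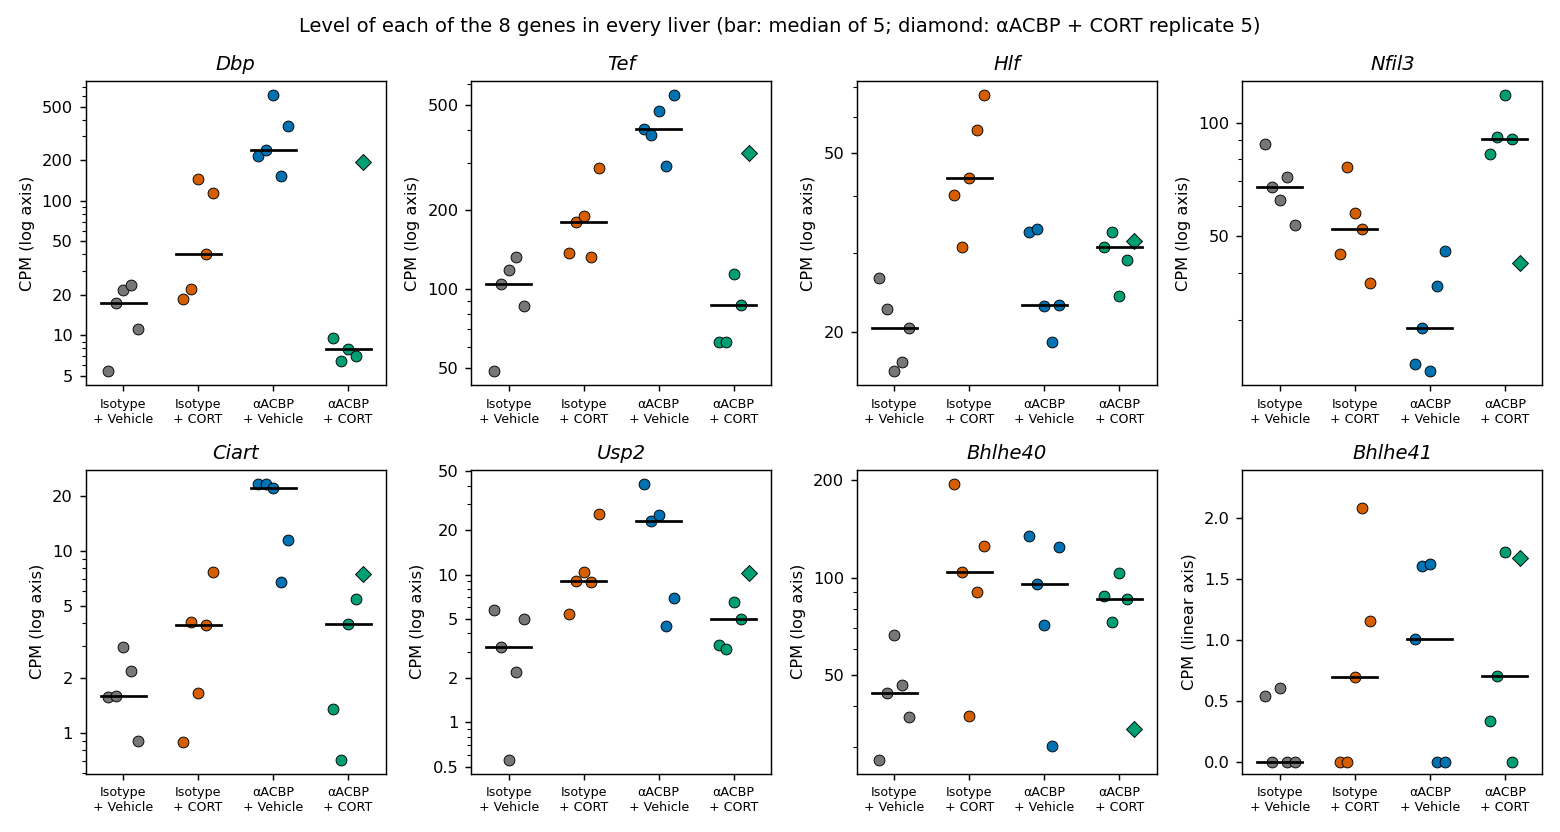
CPM of each gene in every liver, on log axes except for Bhlhe41, whose axis is linear because several livers are at 0. Points are livers, colours are the 4 groups, bars are medians of 5, and the diamond is αACBP + CORT replicate 5. All αACBP + Vehicle livers are above all Isotype + Vehicle livers for Dbp, Tef and Ciart and below them for Nfil3.

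Dbp, the most strongly rhythmic of the activators in liver, had the largest spread between livers of a group among the 7 genes found in every liver. Its CPM was 5.42, 17.2, 21.8, 23.5 and 11.2 in Isotype + Vehicle and 18.7, 22.2, 144, 40.3 and 114 in Isotype + CORT. It was 214, 236, 610.4, 151 and 360.4 in αACBP + Vehicle and 9.60, 6.43, 7.98, 6.97 and 194 in αACBP + CORT. Every αACBP + Vehicle liver was above every Isotype liver of either drink. Group means ran from 15.8 ± 7.52 (SD, n = 5) in Isotype + Vehicle through 45.1 ± 83.5 in αACBP + CORT and 67.8 ± 57.3 in Isotype + CORT to 314 ± 182 in αACBP + Vehicle. The 3 lower groups overlapped one another, and the order of the lowest pair turned without replicate 5, which left αACBP + CORT at 7.75 ± 1.39 (SD, n = 4).

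Tef followed the same order of groups at a steadier level. Its CPM was 48.5, 104, 118, 131 and 85.8 in Isotype + Vehicle and 137, 179, 189, 131 and 287 in Isotype + CORT. It was 404, 384, 475, 293 and 546 in αACBP + Vehicle and 62.6, 62.8, 114, 86.8 and 327 in αACBP + CORT. All αACBP + Vehicle livers were above all livers of both isotype groups, and replicate 5 of αACBP + CORT fell inside the αACBP + Vehicle range. The means were 97.5 ± 32.2, 185 ± 62.4, 420.3 ± 95.7 and 131 ± 112 CPM in these 4 groups (SD, n = 5 each). Without replicate 5, the αACBP + CORT mean was 81.5 ± 24.3 (SD, n = 4), which overlaps Isotype + Vehicle.

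Hlf had another order of groups. Its CPM was 26.4, 22.5, 16.4, 17.1 and 20.4 in Isotype + Vehicle and 40.2, 30.9, 44.0, 56.1 and 67.1 in Isotype + CORT. It was 33.3, 33.8, 22.8, 18.98 and 23.0 in αACBP + Vehicle and 30.9, 33.3, 24.0, 28.8 and 31.8 in αACBP + CORT. The highest group was Isotype + CORT, not αACBP + Vehicle, and both αACBP groups overlapped each other and Isotype + Vehicle. Replicate 5 of αACBP + CORT was within the range of its group for this gene.

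Nfil3, the repressor, was lowest in the group where Dbp and Tef were highest. Its CPM was 87.9, 67.6, 62.2, 71.8 and 53.4 in Isotype + Vehicle and 44.8, 76.1, 57.6, 52.1 and 37.5 in Isotype + CORT. It was 22.9, 28.5, 21.9, 36.9 and 45.5 in αACBP + Vehicle and 82.7, 91.4, 119, 90.6 and 42.5 in αACBP + CORT. The αACBP + Vehicle livers were all below the Isotype + Vehicle livers, and the single low liver of αACBP + CORT was replicate 5. The means rose from 31.1 ± 10.01 in αACBP + Vehicle through 53.6 ± 14.7 in Isotype + CORT and 68.6 ± 12.8 in Isotype + Vehicle to 85.2 ± 27.4 CPM in αACBP + CORT (SD, n = 5 each), and each neighbouring pair overlapped. Without replicate 5, the αACBP + CORT mean was 95.8 ± 15.7 CPM (SD, n = 4).

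Ciart, whose product represses CLOCK:BMAL1, was low in 3 groups. Its CPM was 1.56, 1.59, 2.94, 2.19 and 0.898 in Isotype + Vehicle and 0.888, 4.05, 1.65, 3.91 and 7.60 in Isotype + CORT. It was 23.3, 23.4, 22.2, 6.71 and 11.5 in αACBP + Vehicle and 1.34, 0.708, 3.96, 5.44 and 7.45 in αACBP + CORT. Of the latter group, replicate 5 alone reached the range of αACBP + Vehicle. Counts behind the low values were small, from 11 to 138 in αACBP + CORT.

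Usp2 had CPM of 5.72, 3.24, 0.558, 2.19 and 4.97 in Isotype + Vehicle and 5.40, 9.003, 10.4, 8.86 and 25.6 in Isotype + CORT. It had 41.3, 23.0, 25.2, 4.51 and 6.94 in αACBP + Vehicle and 3.36, 3.15, 6.48, 5.02 and 10.3 in αACBP + CORT. The αACBP + Vehicle group was split, with 3 livers above 20 CPM and 2 within the Isotype + Vehicle range or close to it. The highest Isotype + CORT liver, replicate 5, was far from the other 4.

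Bhlhe40 was 27.3, 44.0, 66.5, 46.7 and 37.1 CPM in Isotype + Vehicle and 195, 104, 37.4, 90.0 and 126 in Isotype + CORT. It was 134, 95.5, 71.6, 30.3 and 124 in αACBP + Vehicle and 87.7, 72.7, 104, 86.1 and 34.1 in αACBP + CORT. Isotype + Vehicle had the lowest mean, and each of the other groups held 4 livers above all 5 of its livers and 1 liver within its range.
Bhlhe41 was at the limit of detection, with 0 counts in 3, 2, 2 and 1 of the 5 livers of the groups in the same order and a highest level of 2.08 CPM. Where it was found, it had 5 to 32 counts. No difference was detectable at this depth.

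Levels can be compared between genes only per length of transcript, for which the joined length of all annotated exons of a gene stood in here. Transcripts present in liver may be shorter, and the annotation used for counting is not known. The order of genes, the ratio and the percentages below are therefore approximate. Per kilobase of exon in the GENCODE annotation (GRCm39), Isotype + Vehicle livers held 13.9 ± 2.58 CPM of Nfil3, 11.8 ± 3.90 of Tef, 6.98 ± 2.28 of Bhlhe40, 4.56 ± 2.17 of Dbp and 2.97 ± 0.59 of Hlf (SD, n = 5). In αACBP + Vehicle the order turned, with 90.6 ± 52.5 of Dbp and 50.9 ± 11.6 of Tef above 6.29 ± 2.02 of Nfil3. The summed level of the 3 activators divided by that of Nfil3 puts both sides of the D-box into 1 value, which does not depend on library size. This ratio was 0.634 to 1.82 (median 1.54) in Isotype + Vehicle and 2.12 to 10.2 (median 3.39) in Isotype + CORT. It was 10.97 to 53.6 (median 20.7) in αACBP + Vehicle. In αACBP + CORT it was 0.773 to 0.912 in 4 livers and 11.7 in replicate 5. All Isotype + CORT livers were above all Isotype + Vehicle livers for this ratio, and αACBP + Vehicle lay above both. The ratio joins members chosen with their group differences known, so this separation restates those differences and adds no support. No share of other ratios that separate the groups was computed. Of single genes, 5.04% had no overlap between the isotype groups and 7.13% between the vehicle groups. Dbp made up 53.3% to 74.3% of the 3 activators in αACBP + Vehicle, against 13.9% to 27.4% in Isotype + Vehicle.

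**Figure D2:**
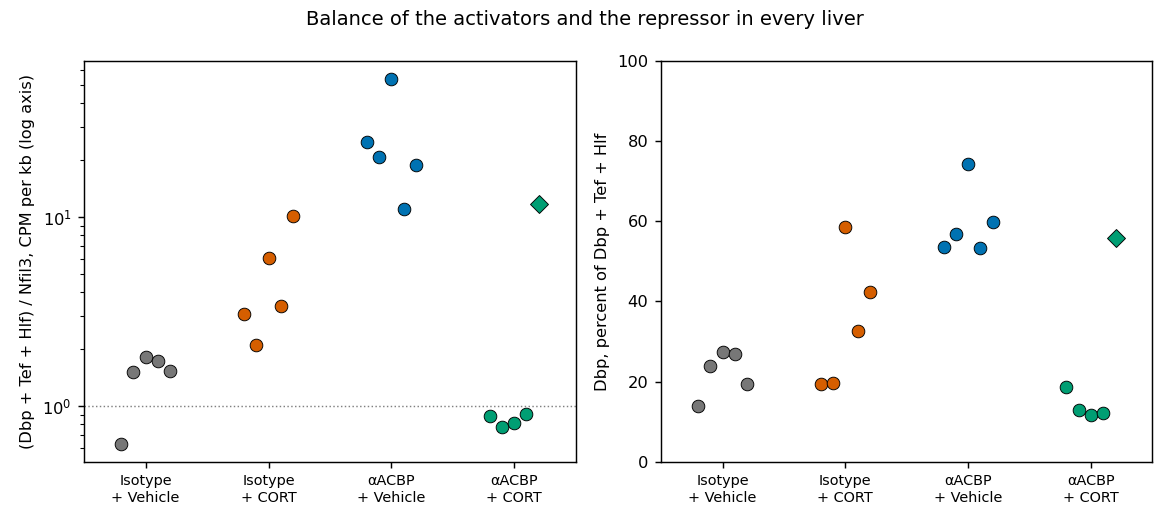
Left, summed Dbp, Tef and Hlf over Nfil3, each as CPM per kilobase of exon, on a log axis with a dotted line at 1. Right, Dbp as a percent of the 3 activators. Points are livers, colours are groups, and the diamond is αACBP + CORT replicate 5, which sits at 11.7 while the other 4 livers of its group lie between 0.773 and 0.912.

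The tests below were fitted on all 16071 genes, and adjusted p-values run over all of them. A gene was called at an adjusted p of at most 0.05 with a log2 fold change of at least 1 in size. Comparisons share groups, so their values for the members are not independent of one another.

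The comparison of αACBP with isotype under vehicle asks what the antibody did without CORT. By edgeR on all 20 livers it had more members called than any other comparison made here, which does not hold under every alternative, as given with the interaction. Dbp was 19.9-fold higher (log2 4.31 ± 1.06 SE, adjusted p = 0.0287), Ciart 9.42-fold (3.24 ± 0.58, adjusted p = 0.00368), Usp2 6.06-fold (2.60 ± 0.62, adjusted p = 0.0242) and Tef 4.31-fold (2.11 ± 0.41, adjusted p = 0.00859). Nfil3 was 2.201-fold lower (log2 -1.14 ± 0.24, adjusted p = 0.00788). Hlf (log2 0.36 ± 0.20), Bhlhe40 (1.04 ± 0.41) and Bhlhe41 (1.83 ± 1.57) were not called. Thus 5 of 8 members were called, 4 higher and 1 lower, while 1.3% of all genes were called, 0.684% higher and 0.616% lower. At an unadjusted p with the fold limit 6 members passed, against 3.34% of all genes. The 2 groups did not overlap for 4 members (Dbp, Tef and Ciart higher, Nfil3 lower), and 7.13% of all genes showed no overlap. The members' median log2 fold change was 1.97, and that of all genes was -0.02.
The Dbp call was lost without any one of Isotype + Vehicle replicates 1, 2, 3 and 5 and αACBP + Vehicle replicates 1, 3 and 5, where log2 ran from 3.92 to 4.45 and the edgeR adjusted p from 0.0505 to 0.0920. The Usp2 call was lost without Isotype + Vehicle replicate 2 or 5 or αACBP + Vehicle replicate 1, where log2 ran from 2.16 to 2.78 and the edgeR adjusted p from 0.0581 to 0.0669. The share of all genes called was 0.528% to 1.48% in the refits that lost Dbp. It was 0.528% to 0.747% in those that lost Usp2, against 1.3% with all livers.
The ranges of some cell type markers were lower in αACBP + Vehicle. In αACBP + Vehicle against Isotype + Vehicle, the 4 hepatocyte markers summed to 35063 to 87639 against 63959 to 111591 CPM, 4 stellate cell markers to 94.2 to 116 against 112 to 198, and 4 cholangiocyte markers to 26.6 to 71.2 against 57.4 to 90.2. All 3 sums overlapped between the groups and none of these markers was at 0 in all livers of a group. Their part in the members' differences was not tested.

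The comparison of CORT with vehicle under isotype asks what the hormone did under the control antibody. Hlf was 2.32-fold higher (log2 1.21 ± 0.21 SE, adjusted p = 0.000980) and was the 1 member of 8 that was called, against 1.94% of all genes; at an unadjusted p with the fold limit 4 members passed, against 5.54%. It was also the 1 member whose groups did not overlap, against 5.04% of all genes. Dbp (log2 2.10 ± 0.97, adjusted p = 0.306), Usp2 (1.83 ± 0.61, adjusted p = 0.116), Bhlhe40 (1.32 ± 0.42, adjusted p = 0.0960), Ciart (0.97 ± 0.55) and Tef (0.92 ± 0.40) had positive differences that were not called. Nfil3 had a log2 difference of -0.35 ± 0.23 (adjusted p = 0.520). The members' median was 1.26 and that of all genes 0.00. The DESeq2 Wald test called 3 members, Hlf, Usp2 and Bhlhe40, against 3.28% of all genes. Without Isotype + CORT replicate 3, edgeR also called Bhlhe40 (log2 1.54, adjusted p = 0.0241), which gave 2 members against 2.56% of all genes.

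Immune cells, too, express Nfil3 and Bhlhe40, and the ranges of their markers were lower in Isotype + CORT than in Isotype + Vehicle. In Isotype + CORT, 4 Kupffer cell markers summed to 88.4 to 273 CPM against 245 to 406 in Isotype + Vehicle, 4 B cell markers to 1.16 to 10.05 against 12.8 to 23.8, and 4 T cell markers to 0.0644 to 1.44 against 2.54 to 5.76. In αACBP + Vehicle these sums were 334 to 602, 9.90 to 24.8 and 1.34 to 5.85. In αACBP + CORT they were 309 to 459, 2.64 to 14.7 and 1.09 to 3.80. None of these markers was at 0 in all livers of a group. Their part in the members' differences was not tested.

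The comparison of CORT with vehicle under αACBP gave differences of the opposite sign for most members, and their size depended on 1 liver. Nfil3 was 2.73-fold higher with CORT (log2 1.45 ± 0.24 SE, adjusted p = 0.0101) and was the 1 member called, against 0.212% of all genes; at an unadjusted p with the fold limit 5 members passed, against 2.46%. Dbp (log2 -2.80 ± 0.98, adjusted p = 0.236), Ciart (-2.20 ± 0.55, adjusted p = 0.0767), Usp2 (-1.83 ± 0.60, adjusted p = 0.196) and Tef (-1.68 ± 0.40, adjusted p = 0.0767) had negative differences that were not called. Hlf (0.18 ± 0.20) and Bhlhe40 (-0.25 ± 0.41) were close to 0. No member was free of overlap between groups, against 2.74% of all genes.
When αACBP + CORT replicate 5 was left out, 4 members were called, against 0.93% of all genes. Dbp was then 40.5-fold lower (log2 -5.34 ± 0.74, adjusted p = 0.00155), Ciart 6.04-fold lower (-2.60 ± 0.59, adjusted p = 0.0203), Tef 5.15-fold lower (-2.36 ± 0.28, adjusted p = 3.93e-05) and Nfil3 3.08-fold higher (1.62 ± 0.22, adjusted p = 0.000135). The same 4 genes were then free of overlap, 3 lower and 1 higher, against 7.54% of all genes. With all 20 livers, the DESeq2 Wald test called 5 members, adding Dbp, Tef, Ciart and Usp2 to Nfil3, against 1.1% of the genes to which it gave an adjusted p.

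**Figure D3:**
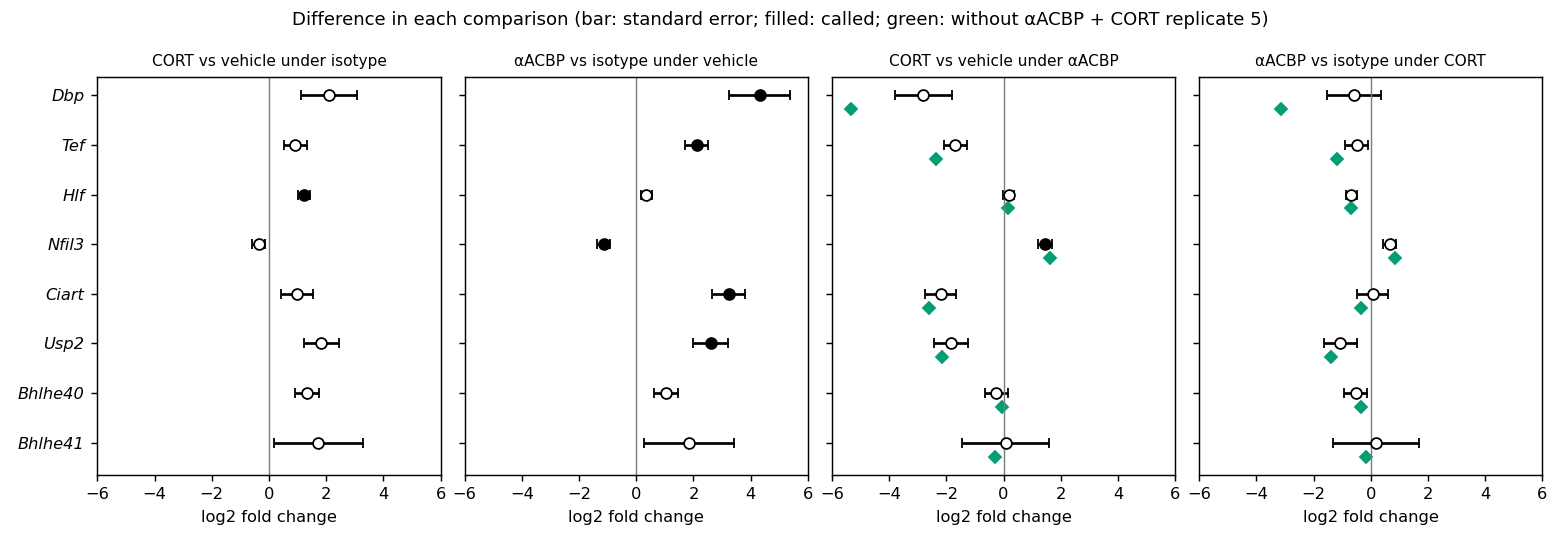
Log2 fold change of each gene in 4 comparisons, with bars for the standard error and filled circles for genes called by edgeR; green diamonds are the same values without αACBP + CORT replicate 5. Dbp under αACBP moves from -2.80 to -5.34 when that liver is left out, and Hlf from 0.18 to 0.15.

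The comparison of αACBP with isotype under CORT asks what the antibody did in the presence of the hormone. The edgeR test called 0 of 8 members, against 0.597% of all genes, and 0 passed an unadjusted p of 0.05 together with the fold limit. DESeq2 also called 0. Hlf (log2 -0.68 ± 0.20, adjusted p = 0.109) and Nfil3 (0.67 ± 0.23, adjusted p = 0.182) had the smallest p-values. The other members ranged from -1.06 for Usp2 to 0.18 for Bhlhe41. All 8 members overlapped between the groups, and 3.22% of all genes did not. Without αACBP + CORT replicate 5, Tef was called (log2 -1.18 ± 0.27, adjusted p = 0.0376), 1 of 8 against 0.365% of all genes, and Dbp moved from a log2 of -0.59 to -3.13 (adjusted p = 0.0543).

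The αACBP + CORT and Isotype + Vehicle groups were compared as well. Here edgeR called 0 of 8 members against 0.0684% of all genes, DESeq2 called 0, and 0 passed the unadjusted p with the fold limit. All 8 log2 differences were positive, from 0.31 for Nfil3 to 1.91 for Bhlhe41, with a median of 0.78. Without replicate 5 of αACBP + CORT, those of Dbp and Tef turned to -1.03 and -0.26. No member was free of overlap, against 3.31% of all genes.

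The interaction tests whether the CORT difference under αACBP departs from that under isotype. Nfil3 was the 1 member called (log2 1.80 ± 0.33 SE, adjusted p = 0.0162), against 0.143% of all genes. Its CORT difference was 1.45 under αACBP and -0.35 under isotype. The call was lost without αACBP + CORT replicate 3 (log2 1.66, edgeR adjusted p = 0.0504), which left 0 members called against 0.0364% of all genes. Tef was added without Isotype + CORT replicate 4 (log2 -2.71, adjusted p = 0.0495; 2 members against 0.394% of all genes), and Tef, Ciart and Usp2 were added without αACBP + Vehicle replicate 4, which gave 4 members called against 0.395% of all genes. For the other 7 members the interaction was negative, with -4.90 ± 1.38 for Dbp (adjusted p = 0.163), -3.66 ± 0.86 for Usp2 (0.0751), -3.17 ± 0.78 for Ciart (0.0752), -2.61 ± 0.56 for Tef (0.0570) and -1.03 ± 0.29 for Hlf (0.112). With αACBP + CORT replicate 5 left out, edgeR called 5 members, against 0.614% of all genes, namely Dbp (-7.44 ± 0.93), Usp2 (-3.99 ± 0.89), Ciart (-3.57 ± 0.78), Tef (-3.29 ± 0.37) and Nfil3 (1.98 ± 0.30). The DESeq2 Wald test on all 20 livers called 6 members, those 5 and Hlf, against 1.85% of the genes with an adjusted p. At an unadjusted p with the fold limit 7 members passed, against 4.92% of all genes.

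Variation between mice of 1 group was not used to choose the members, and it offers a measure of its own. Group means were removed from log2 CPM, and the 28 pairs of members were correlated over the 20 livers, with a two-sided permutation test of 100000 resamples within groups and adjustment over the 28 pairs. Dbp and Tef were the 1 pair to pass, with a Pearson r of 0.86 (permutation p = 0.000440, adjusted p = 0.0123) and a Spearman rho of 0.79 (permutation p = 0.000350, adjusted p = 0.00980). Without the 2 livers farthest from the Dbp median, r was 0.77 (adjusted permutation p = 0.0409). Without αACBP + CORT replicate 5 alone, r was 0.70 and the adjusted permutation p 0.0577, so the call was lost without that liver. It was also lost without the Isotype + Vehicle group (r = 0.85, adjusted permutation p = 0.0635) or the αACBP + Vehicle group (r = 0.87, adjusted permutation p = 0.0616). Dbp and Nfil3 ran opposite ways within groups (r = -0.62, rho = -0.48), and Tef and Ciart (r = 0.63, rho = 0.59) and Hlf and Usp2 (r = 0.63, rho = 0.60) ran together, but the adjusted permutation p-values were 0.162, 0.0947 and 0.0947. Without the 2 farthest livers, these 3 values of r were -0.42, 0.66 and 0.64. Without αACBP + CORT replicate 5 they were -0.31, 0.55 and 0.63, with adjusted permutation p-values of 0.522, 0.189 and 0.166. For Dbp and Nfil3, r was -0.94 in αACBP + CORT and -0.45 to -0.28 in the other groups. Within groups Hlf did not track Dbp detectably (r = 0.12, rho = 0.10, adjusted permutation p = 0.781).

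**Figure D4:**
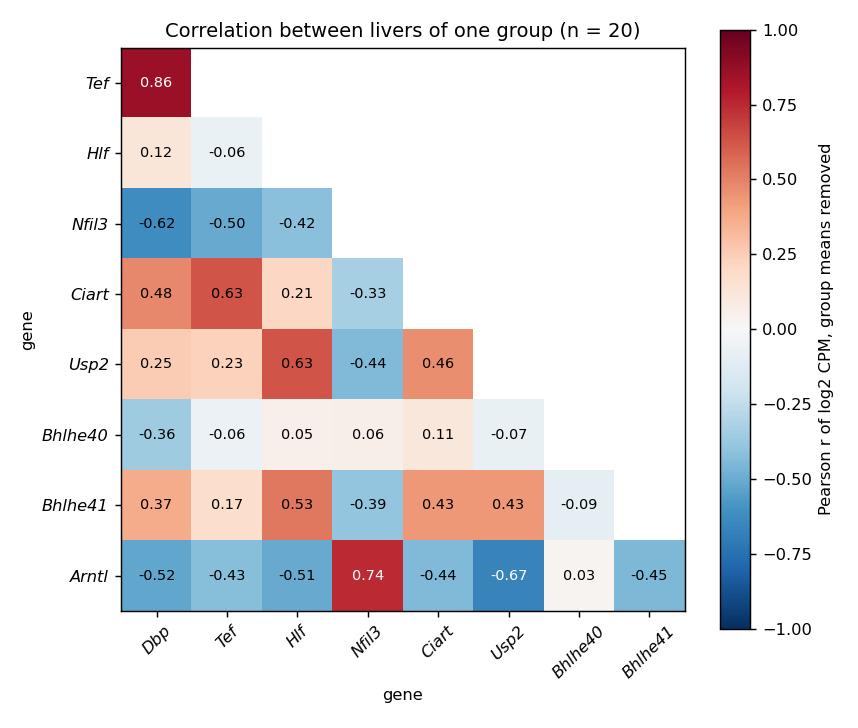
Pearson r of log2 CPM between genes over 20 livers after the mean of each group was removed, from -1 (blue) to 1 (red), with each value printed in its cell. The highest value among the members is 0.86 for Dbp and Tef, and Arntl in the bottom line is positive with Nfil3 (0.74) and negative with Usp2 (-0.67).

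Arntl encodes BMAL1, the activator at the head of the clock loop, whose transcript peaks opposite to Dbp. It was 28.2 to 40.6 CPM in Isotype + Vehicle, 5.80 to 25.1 in Isotype + CORT, 1.90 to 13.2 in αACBP + Vehicle and 10.6 to 35.5 in αACBP + CORT, where the lowest liver was again replicate 5. It was 4.32-fold lower with αACBP under vehicle (log2 -2.11 ± 0.43 SE, adjusted p = 0.0108). Its correlation with the 8 members within groups was added after the data were seen and adjusted over 8 pairs. Nfil3 (r = 0.74, rho = 0.72, adjusted permutation p = 0.00784) and Usp2 (r = -0.67, rho = -0.66, adjusted permutation p = 0.00784) passed. Without the 2 livers farthest from the member's median, r was 0.62 for Nfil3 (adjusted permutation p = 0.124) and -0.80 for Usp2 (0.0128). Without αACBP + CORT replicate 5, r was 0.70 and -0.64, with an adjusted permutation p of 0.0514 for both. The members that passed then numbered 0; they numbered 1 without Isotype + CORT replicate 5, 4 without αACBP + Vehicle replicate 5 and 5 without Isotype + CORT replicate 4. Dbp had an r of -0.52 and a rho of -0.48 with Arntl (adjusted permutation p = 0.0602). Without αACBP + CORT replicate 5, this r was -0.37 (adjusted permutation p = 0.260).

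The spread within groups differed between the members. The SD of log2 CPM within groups was 1.37 for Dbp, 1.06 for Usp2, 1.02 for Ciart, 0.73 for Bhlhe40, 0.63 for Tef, 0.43 for Nfil3 and 0.33 for Hlf, where the median gene had 0.49. Of all tested genes, 84.8% had a smaller SD than Dbp and 25.8% a smaller one than Hlf. Without αACBP + CORT replicate 5, the SD of Dbp was 0.92 and that of Tef 0.45. Usp2 (1.06) and Ciart (0.97) then had larger SDs than Dbp.

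Genes most like Dbp within groups were ranked by Pearson r among 12195 genes with a mean of at least 1 CPM, as a description with no test. The 5 highest were Sphk2 (r = 0.86), Acox3 (0.85), Cyp2a5 (0.84), Fbxo18 (0.81) and Per3 (0.80). Sphk2, a sphingosine kinase, lies on the opposite strand and overlaps 15.5% of the Dbp exon length. The strand setting of the counting is not stated, so reads of the pair cannot be told apart there. Non-unique features were included in the counting, so a read there may count for both genes. Cyp2a5, a cytochrome P450 known as a target of PAR bZIP factors, is nearly identical to Cyp2a4, which makes its counts uncertain. The 5 lowest were Clpx (r = -0.93), a mitochondrial protease subunit, Ugt2b35 (-0.87), Man1a (-0.86), Lgalsl (-0.85) and Cpsf6 (-0.83). Leaving out αACBP + CORT replicate 5, these 10 values lay between 0.65 and 0.84 for the first set and between -0.83 and -0.64 for the second.

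Related genes were taken from lists fixed with earlier results known. Of 12 core clock genes, Arntl alone was called, lower with αACBP under vehicle, where 1.3% of all genes were called. The clock references Per1 (log2 1.85 ± 0.77 SE, adjusted p = 0.180) and Nr1d1 (0.60 ± 0.58, adjusted p = 0.640), the latter a repressor of Arntl, were not called there. With αACBP under vehicle the 12 genes moved both ways. Of the 12, 7 had a positive log2 difference, the largest being Per3 (2.64), and the others a negative one, the largest being Npas2 (-2.13). Their median of 0.56, against -0.02 for all genes, therefore describes no common direction. Nr1d1 in αACBP + CORT was 27.1 to 61.4 CPM in 4 livers and 263 in replicate 5.
Of 12 known targets of PAR bZIP factors or Nfil3 in liver, 3 were called, each in 1 comparison. Of all genes, 1.3% were called with αACBP under vehicle and 1.94% with CORT under isotype. Por, the electron donor of cytochrome P450 enzymes, was 239.6 to 324 CPM in αACBP + Vehicle and 93.4 to 196 in Isotype + Vehicle (log2 1.02 ± 0.26 SE, adjusted p = 0.0264). Fgf21, a fasting and stress hormone of the liver (log2 3.77 ± 0.95, adjusted p = 0.0374), and Cyp2b10, a drug-metabolizing enzyme (2.07 ± 0.55, adjusted p = 0.0467), were higher with CORT under isotype. The median of the 12 with αACBP under vehicle was 0.09, and 6 of 12 were positive.
Of 10 other rhythmic liver genes, Gys2, the liver glycogen synthase, was called. It was 67.8 to 134 CPM in Isotype + Vehicle, 103 to 150.01 in Isotype + CORT, 163 to 298 in αACBP + Vehicle and 82.2 to 149 in αACBP + CORT. It was higher with αACBP under vehicle (log2 1.25 ± 0.20 SE, adjusted p = 0.00215), lower with CORT under αACBP (-1.11 ± 0.20, adjusted p = 0.0101) and called in the interaction (-1.52 ± 0.28, adjusted p = 0.0162). Of all genes, 1.3%, 0.212% and 0.143% were called in these comparisons, in that order.
Of the 10 glucocorticoid-induced genes, Fkbp5 was called with CORT under isotype, against 1.94% of all genes. There Per1 had a log2 difference of -1.16 and Tsc22d3, also known as GILZ, one of -0.67. Mt1 (log2 1.38 ± 0.33 SE, adjusted p = 0.0202) and Mt2 (2.12 ± 0.39, adjusted p = 0.00721), the metallothioneins, were called with αACBP under vehicle, against 1.3% of all genes. All 10 were positive there, with a median of 0.65. None of the 10 was called in the other 4 comparisons, in which 0.0684% to 0.597% of all genes were called.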

How the data were processed

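Liver RNA of 20 mice was sequenced as read pairs. The deposited table holds raw read counts per gene, which the authors made by aligning with HISAT2 and counting with HTSeq in union mode, non-unique features included. The annotation release and strand setting are not given in the sources used here. The submitters' notes name mm10 and the study's methods GRCm39, so only the RefSeq windows (GRCm38.p6) are given with coordinates. Of each table's total, 36.6% to 40.4% lay on genes; lines naming no gene were left out. Groups and replicate numbers came from the labels, and the labels name no batch. The p-values measure the spread between mice.

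The members and the gene lists were chosen with earlier results of these data known. Counts were fitted with edgeR 4.0.16 in R 4.3.3 (TMM, filterByExpr, robust quasi-likelihood, 1 model of the 4 groups), with Benjamini-Hochberg adjustment over 16071 genes and limits of 0.05 on the adjusted p and 1 on the log2 fold change (the study's methods state the same limits but name no adjustment of p). Log2 CPM used a prior count of 2; CPM used TMM library sizes, and standard errors were derived from the F statistic. Correlations used NumPy 2.4.6 with 100000 permutations within groups. Exon lengths and overlaps came from GENCODE M39. Named genes were all members, called genes of the lists, Arntl, Per1, Nr1d1 and Fkbp5, and the 5 genes with the highest and the 5 with the lowest r with Dbp, without genes named Gm or Rik and pseudogenes. Alternatives were DESeq2 1.42.0 (size factors, Wald test), other count filters, library sizes without the 20 most abundant genes, no fold limit, unadjusted p, the compared groups alone, a replicate block, each liver left out and, added after seeing the data, limma 3.58.1 voom with liver weights. Scripts were tested on simulated data. The counting floor covers counting error only.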

Additional observations from a re-analysis of the deposited data

Results flagged for a closer look

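Of 32 sets of 5 livers (8 genes in 4 groups), 3 had a highest liver far from the other 4 by Dixon's criterion. The criterion is made for normally distributed values and was applied to untransformed CPM, so no chance rate is given. The flags of Dbp and Tef fall on the same liver, and the 2 genes were correlated within groups (r = 0.86), so these flags are not independent. Dbp in αACBP + CORT replicate 5 was 194 CPM, with the next liver at 9.60. Tef in the same liver was 327 CPM, with the next at 114. Usp2 in Isotype + CORT replicate 5 was 25.6 CPM, with the next at 10.4.

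The CORT difference of Nfil3 departed between the antibody arms by 1.80 on the log2 scale (edgeR interaction, adjusted p = 0.0162).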

How the results depend on the processing

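Of 1023 values of a member's log2 fold change under the alternatives, 946 kept direction and side of the limits, 46 gained a call, 11 lost one and 20 turned sign. Not all of these were refits. The unadjusted p and the missing fold limit changed only the rule for a call, so signs could not turn there. Dropping the fold limit changed the number of members called in no comparison. DESeq2's Wald test raised the members called to 3 with CORT under isotype, 5 with CORT under αACBP and 6 in the interaction. It called 3.28%, 1.1% and 1.85% of the genes with an adjusted p there. An unadjusted p gave 4, 5 and 7, against 5.54%, 2.46% and 4.92% of all genes. At least 10 counts in every liver gave 2 in the interaction (0.532% of all genes), and voom with liver weights gave 4 with CORT under αACBP (0.964%) and 3 in the interaction (0.305%). With 1 liver left out, the members called were 1 to 2 with CORT under isotype (1.24% to 2.56% of all genes) and 0 to 1 with αACBP under CORT (0.316% to 1.16%). They were 1 to 4 with CORT under αACBP (0.0303% to 0.93%), 3 to 5 with αACBP under vehicle (0.528% to 2.08%) and 0 to 5 in the interaction (0.0364% to 0.614%). They stayed at 0 in αACBP + CORT against Isotype + Vehicle (0.00606% to 0.14%). The share of all genes called thus also moved with the liver left out. Causes other than the liver left out were not tested.

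Signs turned only for differences not called. Leave-one-out ranges crossed 0 for Ciart (-0.33 to 0.53) and Bhlhe41 (-0.21 to 0.93) with αACBP under CORT, for Bhlhe41 with CORT under αACBP (-0.31 to 0.44), and for Dbp (-1.03 to 1.79) and Tef (-0.26 to 0.60) in αACBP + CORT against Isotype + Vehicle. Under voom, Ciart (-0.020) and Bhlhe41 (-0.60) with αACBP under CORT, Bhlhe40 (0.24) and Bhlhe41 (-0.38) with CORT under αACBP, and Dbp (-0.34) in αACBP + CORT against Isotype + Vehicle turned.

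Of the lists, the Wald test called 5 core clock, 2 D-box target and 2 glucocorticoid-induced genes with CORT under αACBP, 4, 3 and 3 core clock, D-box target and other rhythmic genes with αACBP under vehicle, 4, 3, 2 and 2 of the lists in the interaction, and 1 other rhythmic gene with CORT under isotype. Of the genes to which it gave an adjusted p, it called 1.1%, 2.57%, 1.85% and 3.28% in these comparisons, in that order. Without a fold limit, 1 core clock and 1 other rhythmic gene were called with CORT under isotype (3.2% of all genes), and 2 core clock and 3 D-box target genes with αACBP under vehicle (5.14%). No count filter gave 0 D-box targets with CORT under isotype (1.14% of all genes called), and DESeq2 size factors gave 1 in the interaction (0.218%).

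Same-numbered livers are different mice, and the 30 such pairs deviated together by r of -0.0999 to 0.0969, with 3 of 20 livers closest to their own number, so the numbers pair nothing. With a replicate block, the members called were 2 with CORT under αACBP (0.224% of all genes) and 2 in the interaction (0.124%), Tef being added in both. Bhlhe41 with αACBP under CORT turned to -0.52. The lists gave 1 D-box target (CORT, isotype, 1.77% of all genes called) and 3 core clock genes (αACBP, vehicle, 1.15%). They also gave 1 core clock and 1 glucocorticoid-induced gene (CORT, αACBP, 0.224%). Under the block, 0 member pairs and 1 member with Arntl correlated. Other member counts were as without the block.

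Correlated member pairs were 0 without the αACBP + Vehicle group and 0 to 2 with 1 liver left out, 0 without αACBP + CORT replicate 5 and 2 without Isotype + Vehicle replicate 3. Without the Isotype + Vehicle group 1 pair passed, but not Dbp and Tef (r = 0.85, adjusted permutation p = 0.0635). Members correlated with Arntl were 1 without the 2 farthest livers, 1 without the Isotype + CORT or αACBP + CORT group, 0 without αACBP + Vehicle, and 0 to 5 with 1 liver left out. Depth limits Bhlhe41, which had 0 counts in 8 of 20 livers.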
